A study of Mus musculus with 10 samples.

Results

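Actin control was followed in microglia that lack both Bhlhe40 and Bhlhe41 through 10 genes: the capping and bundling protein Eps8, the formins Diaph1, Diaph2, Diaph3, Fmnl1, Fmnl2 and Fmnl3, the calponins Cnn2 and Cnn3, and the transgelin Tagln2. They were taken by gene symbol and are 10 of the 53697 genes in the expression tables. The set was put together with the difference between double knockout and wild-type microglia already known, so the differences of these 10 genes are given as description, with values and standard errors (SE) and without p-values. Where the text says that one of them passed the threshold of the fit across all genes, this too describes the set and is no evidence. Actin genes outside the set, listed by role, were tested.

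The tested mice were Bhlhe40-/-Bhlhe41-/- double knockouts (DKO, 5 libraries) and the controls were wild type (WT, 5 libraries), all female, untreated and on a C57BL/6 background. The WT mice are given as C57BL/6J or Rosa26Stop-YFP, a reporter strain, and elsewhere as littermates, without saying which library came from which. Ages are given only for the mice as a whole, as at least 2 and 6 months. The genotype is not limited to microglia, so effects that arise in microglia and in other cells cannot be told apart. Microglia, the macrophages of the brain, were sorted as live Ly6C-Ly6G-MHCII-CD38-CD45.2+CD11b+ cells after a warm enzymatic digestion, and their RNA was sequenced from TruSeq libraries. Libraries are labelled as biological replicates, but whether each is 1 mouse or a pool is not stated.

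Bhlhe40 and Bhlhe41 are basic helix-loop-helix transcription factors that bind the palindrome CACGTG (an E-box) and mostly repress. Actin filaments grow at their barbed end. Formins sit on that end and speed up its growth, and small GTPases release them from an inhibited fold. Eps8 caps the barbed end when bound to Abi1, and bundles filaments with Baiap2 (IRSp53) in filopodia. Calponins and transgelins bind along the filament and stabilise it. In microglia, actin drives the motion of the surveying processes and the closing of the phagocytic cup.

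The sequence around the start site is shown for Diaph2, Cnn2 and Tagln2, the genes with an entry that passed the fit described below, since the 2 deleted factors act on DNA. RefSeq promoters (build GRCm38.p6, 250 bases before to 50 after the annotated start, written 5′ to 3′ on the gene's strand) matched 8 of the 10 genes. Those of Eps8 and Diaph1 were not used here. Capitals mark CACGTG in Diaph2 and, in Cnn2, a CArG box, the site of serum response factor (SRF), which many actin genes carry.
Diaph2, chrX:129749492-129749791, plus strand: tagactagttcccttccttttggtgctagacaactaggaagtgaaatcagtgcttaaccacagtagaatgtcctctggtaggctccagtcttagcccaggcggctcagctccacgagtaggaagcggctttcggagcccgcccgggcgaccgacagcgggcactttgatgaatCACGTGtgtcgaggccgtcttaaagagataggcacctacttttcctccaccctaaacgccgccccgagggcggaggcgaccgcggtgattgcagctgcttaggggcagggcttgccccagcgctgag
Cnn2, chr10:79988350-79988649, plus strand: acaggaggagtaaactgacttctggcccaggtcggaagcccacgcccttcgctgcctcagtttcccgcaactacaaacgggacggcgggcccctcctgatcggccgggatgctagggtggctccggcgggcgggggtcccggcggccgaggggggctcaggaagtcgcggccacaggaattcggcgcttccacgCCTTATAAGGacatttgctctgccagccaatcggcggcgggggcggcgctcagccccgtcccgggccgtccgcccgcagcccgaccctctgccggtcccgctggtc
Tagln2, chr1:172499996-172500295, plus strand: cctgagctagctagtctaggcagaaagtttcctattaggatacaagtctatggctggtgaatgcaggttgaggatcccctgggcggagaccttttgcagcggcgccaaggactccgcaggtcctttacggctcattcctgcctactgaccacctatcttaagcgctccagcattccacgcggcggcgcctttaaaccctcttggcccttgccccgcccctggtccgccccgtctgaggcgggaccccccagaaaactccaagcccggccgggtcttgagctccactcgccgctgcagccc
In Diaph2 the CACGTG lay 77 bases before the start, and in Cnn2 the CArG box lay 56 bases before the start. The promoters of Cnn3, Diaph3, Fmnl1, Fmnl2, Fmnl3 and Tagln2 held neither motif. Both strands were searched, and the motifs do not overlap. CACGTG stood in 2349 of 32851 RefSeq promoters of the same length (7.15%) and the CArG box in 535 (1.63%). A match describes the letters only. No binding was measured.

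The libraries held 22483284 to 26109349 estimated counts each. Levels below are CPM (counts scaled to the library total, adjusted by the trimmed mean of M-values, TMM). Bhlhe41 kept its reads in the DKO (50.9 ± 8.45 CPM, against 35.9 ± 6.67 CPM in WT, SD, n = 5 each, exact permutation test, two-sided p = 0.0238), but the mean length of its assigned transcripts was 2209 ± 362 bases in DKO and 5998 ± 96.4 bases in WT (p = 0.00794, exact permutation test, the smallest that 5 against 5 allows). Bhlhe40 was low in both groups, at 0.177 ± 0.136 CPM in DKO and 0.601 ± 0.385 CPM in WT (exact permutation p = 0.0476), and its p was not under 0.05 without any single DKO library, WT 4 or WT 5. Microglial markers were abundant throughout. Cx3cr1, the fractalkine receptor, averaged 9980.5 CPM in DKO and 10767 CPM in WT (log2 fold change -0.11, SE 0.08), and Tmem119 averaged 7862 CPM in DKO and 9044 CPM in WT (-0.20, SE 0.09), neither past the test. P2ry12, a purinergic receptor of resting microglia, fell (7609 CPM in DKO and 10766 CPM in WT, log2 fold change -0.50, SE 0.12, edgeR adjusted p = 0.0301). On the first principal component WT 1 and WT 5 lay farthest from the DKO libraries (56.3 and 62.6, against -43.3 to -15.4 in DKO). WT 4 and WT 2 lay at 23.1 and 14.6. WT 3, at -12.4, lay beside DKO 3 (-15.4). WT 1, WT 5 and DKO 3 had a higher share of mitochondrial counts (1.75%, 1.54% and 1.58%, against 0.986% to 1.16% in the other 7).

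Eps8 was about an order of magnitude higher in DKO microglia than in WT. It had 23.4, 25.5, 17.8, 21.9 and 26.1 CPM in DKO libraries 1 to 5, against 1.19, 2.51, 2.57, 1.77 and 2.16 CPM in WT libraries 1 to 5. The lowest DKO library was far above the highest WT library, and the spread within each group was small next to the gap. The log2 fold change was 3.49 (SE 0.21), the 25th largest in size among 13916 genes with enough counts to test. In raw terms this was 414 to 613 estimated counts in DKO and 33.0 to 65.0 in WT. The abundance-weighted transcript length of Eps8 overlapped between DKO (2211 to 3317 bases) and WT (1803 to 4147 bases). Its longest annotated transcript has 4567 bases and 22 exons.

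Of the 10 genes, 9 had enough counts, and 4 of these passed the threshold of the fit across all genes (edgeR's quasi-likelihood test, adjusted p of 0.05 by Benjamini-Hochberg): Eps8 and Tagln2 higher and Cnn2 and Diaph2 lower. Across all tested genes 6.19% passed, 4.34% higher and 1.85% lower in DKO. The same 4 were the tested genes whose DKO and WT libraries did not overlap in CPM, which held for 7.62% of all genes (4.34% with DKO higher and 3.28% with DKO lower). The set was chosen on this contrast, so nothing is read from either count. Bulk RNA cannot tell fewer cells that express a gene from less RNA per cell, and this holds for each value here.

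**Figure D1:**
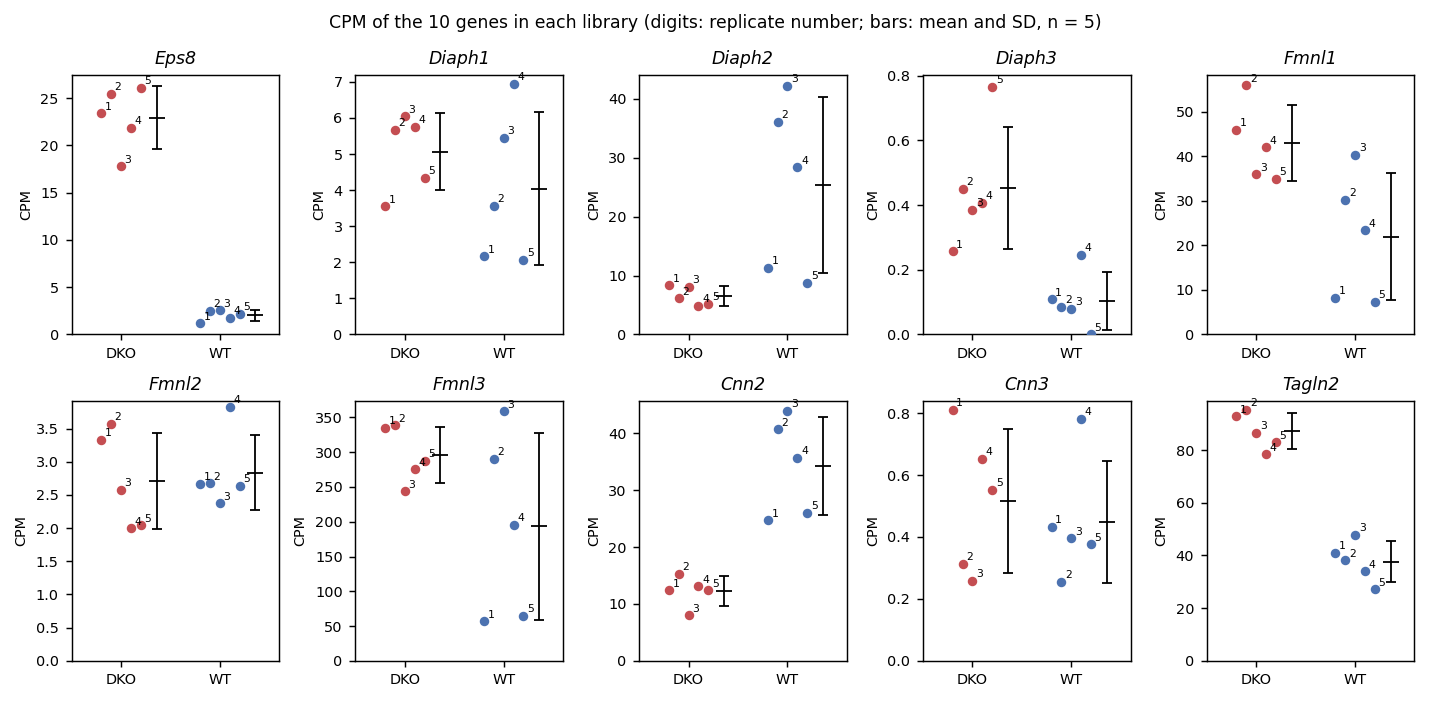
CPM of each of the 10 actin regulators in every library, with 1 panel per gene, DKO points left of WT points, the replicate number beside each point, and the mean and SD (n = 5) as bars. Eps8 and Tagln2 lay higher in all DKO libraries (Eps8 17.8 to 26.1 CPM, against 1.19 to 2.57 CPM in WT), Cnn2 and Diaph2 lay lower, and WT 1 and WT 5 lay at the bottom of the WT points for Fmnl1, Fmnl3, Diaph1 and Diaph2.

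Eps8 lies on chromosome 6 (GRCm38, 137477245-137654876, minus strand), 8.20 Mb from Bhlhe41 (145858243-145865558). Bhlhe40, the other deleted gene, lies on the same chromosome (108660629-108666925), on the other side of Eps8. Genes around Bhlhe40 were not counted. DNA next to a targeted gene can keep the strain of the embryonic stem cells, and the strain carried by each library is not given, so the neighbours are given; a part of such DNA in the level of Eps8 was not tested. Ptpro, a receptor tyrosine phosphatase whose end is 14.01 kb away, had a log2 fold change of -0.27 (SE 0.11, edgeR adjusted p = 0.162). Pde6h, a phosphodiesterase subunit farther on that side, had -0.13 (SE 0.30, adjusted p = 0.833). On the other side, Dera, a deoxyribose-phosphate aldolase, had 0.11 (SE 0.16, adjusted p = 0.724), and Strap, an SMN complex partner 80.2 kb away, had 0.62 (SE 0.48, adjusted p = 0.464). None of these 4 passed the test. Of 24 tested genes between Eps8 and Bhlhe41, 1 rose and 1 fell (8.33%), against 6.19% of all genes. The 1 that rose was Mgst1, a microsomal glutathione transferase (0.998 CPM in DKO and 0.061 CPM in WT, log2 fold change 3.89, SE 0.70, edgeR adjusted p = 0.00834), and the 1 that fell was Bcat1, a branched-chain aminotransferase (0.831 CPM in DKO and 2.06 CPM in WT, -1.31, SE 0.25, adjusted p = 0.0106). Within 20 Mb of Bhlhe41, 11 of 115 rose, Eps8 among them, and 6 fell (14.8%). The highest fold change of these was that of Hebp1, a heme-binding protein on the Ptpro side of Eps8 (192 CPM in DKO and 6.91 CPM in WT, log2 fold change 4.79, SE 0.23, adjusted p = 6.8e-07).

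Tagln2, a transgelin that is expressed well beyond muscle, was the other gene that passed the fit as higher in DKO. Its values were 92.9, 95.3, 86.6, 78.5 and 83.0 CPM in DKO libraries, against 41.0, 38.2, 47.9, 34.0 and 27.2 CPM in WT libraries. Every DKO library was above every WT library, and the groups were separated by 78.5 CPM at the low end of DKO and 47.9 CPM at the high end of WT. The log2 fold change was 1.21 (SE 0.14).

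Cnn2, the calponin of leukocytes and other non-muscle cells, went the other way. It had 12.4, 15.3, 7.98, 13.1 and 12.4 CPM in DKO libraries, against 24.7, 40.7, 43.9, 35.7 and 26.03 CPM in WT libraries. DKO 2, the highest knockout library, was below WT 1, the lowest control. The log2 fold change was -1.48 (SE 0.21). The transcripts assigned to it had the full 2460 bases in every library except DKO 1 (2115 bases). Cnn3, the acidic calponin of brain and other tissues, was near the floor in both groups, at 0.257 to 0.812 CPM in DKO and 0.255 to 0.781 CPM in WT (log2 fold change 0.21, SE 0.39). It had 6 to 19 estimated counts per library in each group, and the fold change was smaller than its SE.

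Calponins and transgelins are best known from smooth muscle, so mural cell markers are given beside them. The 9 markers summed to 0.446 to 1.45 CPM in DKO and 0.395 to 0.946 CPM in WT, with Myh11 and Des at 0 in every library and Pdgfrb the highest. Smooth muscle Acta2, Cnn1 and Tagln each averaged under 0.1 CPM in both groups, and Cnn1, Tagln and the neuronal Tagln3 had too few counts to test.

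Diaph2, a diaphanous formin tied to endosome motion in human cells, was lower in the knockout by CPM. It had 8.35, 6.16, 8.10, 4.87 and 5.16 CPM in DKO libraries, against 11.3, 36.1, 42.2, 28.3 and 8.73 CPM in WT libraries. All DKO libraries were below all WT libraries, but only just: DKO 1 and WT 5 differed by little, and WT 1 and WT 5 were far below the other WT libraries. The log2 fold change was -1.96 (SE 0.41), the lowest of the 9 genes. Diaph2 no longer passed the threshold of the fit without DKO 2 or without DKO 5.

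The separation of Diaph2 depended on how reads were related to length. The abundance-weighted transcript length was 4605, 4648, 4374, 4548 and 4516 bases in DKO libraries, against 8182, 4922, 4775, 5801 and 7808 bases in WT libraries. WT 1 and WT 5 were thus near the length of the coding transcripts of 8439 and 8196 bases. The DKO libraries, and less closely WT 2 and WT 3, were near those of 4480 and 4208 bases (both annotated as retained introns). DKO 1, DKO 2, DKO 4 and DKO 5 were above 4480 bases, a mean that under this annotation takes in some of the longer coding transcripts. A mean length does not tell which transcripts make it up. Per kilobase of effective length, the DKO libraries had 1.61, 1.16, 1.72, 1.00 and 1.04 CPM, against 1.08, 6.48, 7.99, 4.13 and 0.952 CPM in the WT libraries. On this scale WT 1 and WT 5 overlapped the DKO libraries, and WT 2, WT 3 and WT 4 did not. With effective length as an offset in edgeR, the log2 fold change was -1.65 and Diaph2 no longer passed the threshold. It did not pass on log2(TPM + 1) either, at -1.12, or at -0.98 with the noncoding RNA Gm23935 left out. In the fit without the offset, the log2 fold change was -2.45 without WT 1 and WT 5, and -1.69 without WT 3.

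Diaph1, the founding diaphanous formin and a RhoA effector (chromosome 18, 37843601-37935476, minus strand), differed little. It had 3.55, 5.67, 6.05, 5.75 and 4.34 CPM in DKO libraries, against 2.16, 3.57, 5.45, 6.95 and 2.07 CPM in WT libraries, a log2 fold change of 0.33 (SE 0.33). The groups overlapped, with WT 4 the highest of all. Without WT 1 and WT 5 the log2 fold change was -0.07, and without WT 3 it was 0.46. Diaph3, a diaphanous formin of dividing cells, was left out of the fit for low counts, with 6.01 to 18 estimated counts in DKO and 0 to 6.01 in WT. In CPM it had 0.257 to 0.765 in DKO and 0 to 0.247 in WT (means 0.453 in DKO and 0.104 in WT), so that the groups touched in counts and were narrowly apart, with DKO higher, in CPM. Its 0 in WT 5 allows up to 3 counts.

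Fmnl3, a formin-like protein of filopodia and lamellipodia, was the most abundant formin. Its values were 335, 339, 244, 275 and 287 CPM in DKO libraries, against 57.0, 290.2, 359, 196 and 64.4 CPM in WT libraries. WT 3 was above every DKO library and WT 1 and WT 5 were several times lower than any other. The log2 fold change was 0.62 (SE 0.44), 0.07 without WT 1 and WT 5, and 0.96 without WT 3.

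Fmnl1, the formin-like protein of leukocytes, was likewise highest of the WT libraries in WT 3 and low in WT 1 and WT 5. It had 46.0, 55.9, 35.99, 42.1 and 34.9 CPM in DKO libraries, against 8.22, 30.3, 40.4, 23.4 and 7.30 CPM in WT libraries. WT 3 lay within the DKO range and the other WT libraries below it. The log2 fold change was 0.97 (SE 0.42), 0.45 without WT 1 and WT 5, and 1.32 without WT 3. Fmnl2, the close relative of Fmnl3, was low, at 3.33, 3.57, 2.57, 2.00 and 2.04 CPM in DKO libraries, against 2.67, 2.67, 2.37, 3.82 and 2.63 CPM in WT libraries. The groups overlapped, WT 1 and WT 5 were not low here, and the log2 fold change was -0.07 (SE 0.22).

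**Figure D2:**
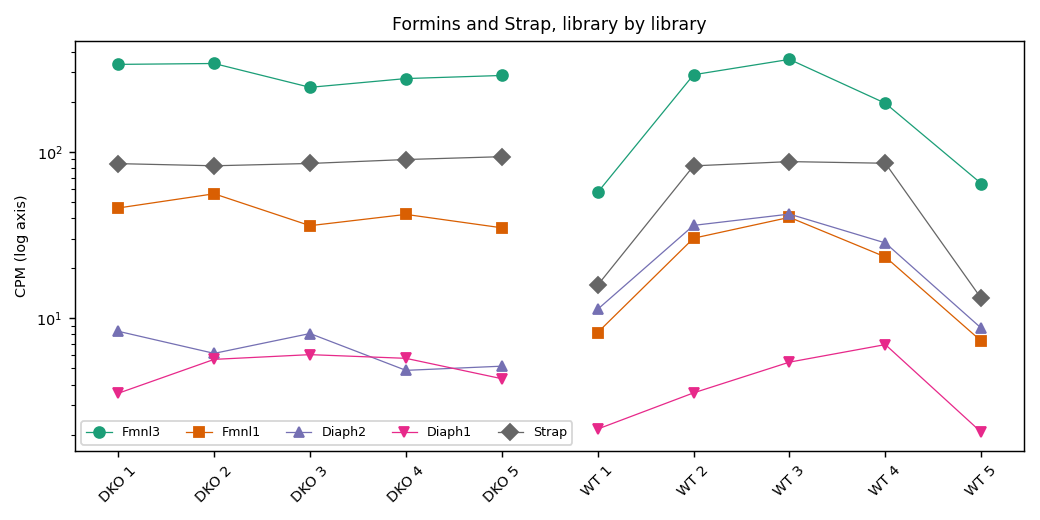
CPM (log axis) of the formins Fmnl3, Fmnl1, Diaph2 and Diaph1 and of Strap, the gene beside Eps8, with DKO libraries 1 to 5 left of WT libraries 1 to 5 and 1 marker per library. WT 1 and WT 5 have the lowest WT value of all 5 genes (Fmnl3 57.0 and 64.4 CPM, Strap 15.8 and 13.2 CPM), and the lines only join libraries of 1 group.

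The low values of WT 1 and WT 5 were not limited to formins. Strap had 84.9, 82.4, 85.1, 89.8 and 93.4 CPM in DKO libraries, against 15.8, 82.3, 87.3, 85.3 and 13.2 CPM in WT libraries. WT 2 to WT 4 matched the DKO and WT 1 and WT 5 did not. WT 1 and WT 5 are also the controls with the higher mitochondrial share. The part of these libraries' state in the formin values was not tested. By the methods, RNA integrity of the mouse samples was not assessed because RNA was scarce, so it is not known for any library.

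**Figure D3:**
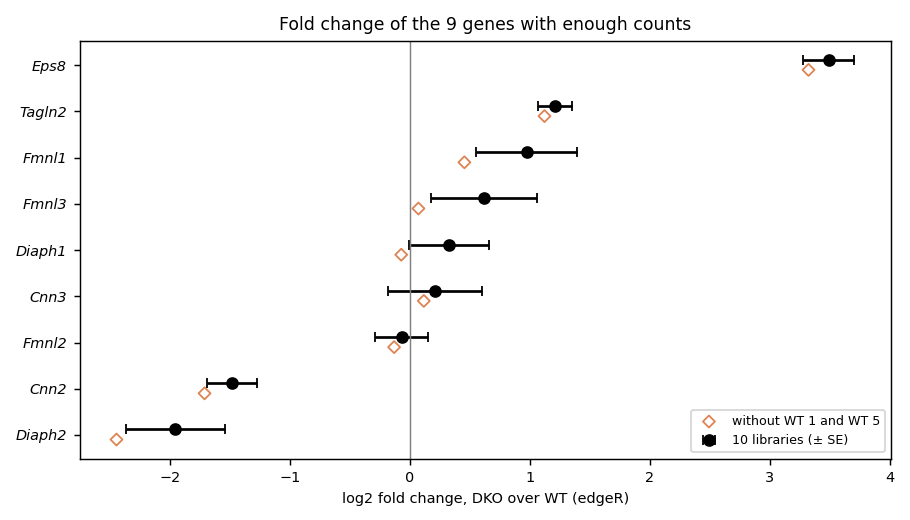
Log2 fold change, DKO over WT, of the 9 actin regulators with enough counts, as filled circles with the SE (edgeR, 10 libraries) and as open diamonds without WT 1 and WT 5. Eps8 (3.49) and Diaph2 (-1.96) lie at the ends, and the diamonds of Fmnl3 (0.07) and Diaph1 (-0.07) lie near 0.

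Levels can be compared between genes only per length, as CPM per kilobase of effective length. In DKO microglia Tagln2 (93.2 ± 7.95, SD, n = 5) and Fmnl3 (88.8 ± 12.05) came first and overlapped. They were followed by Fmnl1 (17.7 ± 3.41), Eps8 (9.07 ± 1.61) and Cnn2 (6.63 ± 1.49), of which Eps8 and Cnn2 overlapped, then by Diaph2 (1.31 ± 0.33) and Diaph1 (1.21 ± 0.27), which overlapped too. Fmnl2 (0.455 ± 0.119), Cnn3 (0.348 ± 0.229) and Diaph3 (0.229 ± 0.282) were lowest and overlapped. The mean of Diaph3 rested on DKO 4 (0.729), where its assigned length was 845 bases.

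In WT microglia the per-length order began with Fmnl3 (58.6 ± 40.3) and Tagln2 (39.6 ± 10.1), which did not differ beyond their spread. Cnn2 (18.02 ± 4.43), Fmnl1 (9.92 ± 5.92) and Diaph2 (4.13 ± 3.16) followed, each overlapping the next. Diaph1 (0.951 ± 0.488), Eps8 (0.650 ± 0.233), Fmnl2 (0.485 ± 0.095) and Cnn3 (0.368 ± 0.131) overlapped in turn, and Diaph3 (0.030 ± 0.036) was last. By this measure Eps8 stood 7th of the 10 genes in WT and 4th in DKO.

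**Figure D4:**
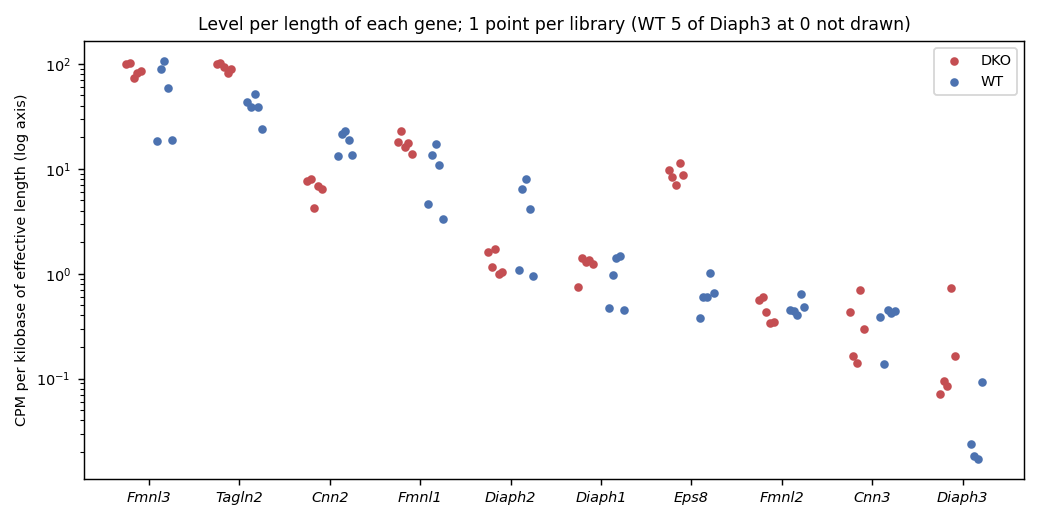
CPM per kilobase of effective length (log axis) of the 10 actin regulators, in the order of their WT means, with 1 point per library and DKO points left of WT points. Eps8 lies between 7.05 and 11.3 in DKO and between 0.382 and 1.02 in WT, and the Diaph2 points of both groups overlap. The value of 0 for Diaph3 in WT 5 is not drawn.

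The genes most like the 3 strongest in pattern were sought over the 10 libraries by Pearson's r of log2 CPM, among 7988 genes with a mean log2 CPM of at least 3. Eps8 was followed most closely by Olfr1330 (0.994), an olfactory receptor, Cacng1 (0.989), a calcium channel gamma subunit, and Adam9 (0.989), a membrane metalloprotease. Cnn2 was nearest to Kcnip3 (0.992), Pear1 (0.981) and Grap (0.979). Diaph2 was nearest to Gimap1 (0.939), a lymphocyte GTPase, Mtss1 (0.935), a membrane-bending actin binder, and Rrp1b (0.923). Genes that differ between the 2 genotypes resemble each other by this measure, so the values are a description.

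Actin genes outside the set passed the test about as often as genes in general. Of 164 listed genes in 14 groups by role, 162 were in the tables under these symbols and 118 had enough counts. Of these, 5 rose and 3 fell in DKO (6.78%, against 6.19% of all genes), with a median log2 fold change of 0.09 against -0.01 over all genes. Gsn, gelsolin, which severs filaments and caps barbed ends, rose most clearly. It had 22.7, 17.5, 20.2, 14.8 and 15.2 CPM in DKO libraries, against 5.95, 7.56, 8.06, 4.89 and 4.48 CPM in WT libraries, with a log2 fold change of 1.55 (SE 0.20, edgeR adjusted p = 0.000849). Every DKO library was above every WT library.

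Among 11 tested members of the Eps8 family and its partners, Baiap2 (IRSp53), the membrane-curving protein that recruits Eps8, was the 1 that passed by edgeR (DESeq2 called 2). It had 15.8, 12.3, 9.35, 8.40 and 8.76 CPM in DKO libraries, against 4.90, 5.35, 5.93, 4.65 and 3.16 CPM in WT libraries. The groups did not overlap, and the log2 fold change was 1.18 (SE 0.22, edgeR adjusted p = 0.0101). Gsn and Baiap2 passed whichever single library was left out (adjusted p of at most 0.00344 and 0.0297).

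The 6 other calls were less firm. Of the 4 other formins tested, Fmn1, an adherens junction formin, fell (4.47 CPM in DKO and 7.12 CPM in WT, log2 fold change -0.67, SE 0.15, edgeR adjusted p = 0.0287). Among 12 small GTPases that act on actin, Rhob, an endosomal and quickly induced GTPase, rose (1.69, SE 0.38, adjusted p = 0.0266), and Rhof, a filopodial GTPase that can act on diaphanous formins, fell (-1.45, SE 0.36, adjusted p = 0.0381). Rhob varied within the DKO, at 179, 257, 66.2, 60.3 and 174 CPM, against 33.1 to 67.1 CPM in WT. Actg1, cytoplasmic gamma-actin, fell modestly (-0.51, SE 0.11, adjusted p = 0.0183). Coro7, a coronin of the Golgi, rose (0.63, SE 0.15, adjusted p = 0.0329), as did Add1, the capping protein alpha-adducin (0.63, SE 0.16, adjusted p = 0.0437).

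Each of these 6 lost its call when certain single libraries were left out. Actg1 lost it without DKO 1 or DKO 2 (highest adjusted p = 0.0557). Rhob lost it without DKO 1, DKO 2, DKO 5, WT 1, WT 2, WT 4 or WT 5 (highest 0.0686), and Fmn1 without DKO 1, DKO 3, DKO 4, DKO 5, WT 2, WT 4 or WT 5 (highest 0.0663). Coro7 lost it without any DKO library or without WT 1, WT 4 or WT 5 (highest 0.0826). Rhof lost it without any DKO library or without WT 2, WT 4 or WT 5 (highest 0.101). Add1 lost it without DKO 1, DKO 2, DKO 4, DKO 5, WT 1, WT 2, WT 4 or WT 5 (highest 0.113).

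No gene passed in the Arp2/3 complex, which nucleates branched filaments (10 tested, 2 at an unadjusted p under 0.05), nor among the WASP, WAVE and WASH proteins that switch it on (13 tested, 3 at an unadjusted p under 0.05) or the crosslinkers and membrane linkers (16 tested, 3 at an unadjusted p under 0.05). Ena/VASP proteins (3 tested), tropomyosins (4), nonmuscle myosin II and its kinases (7) and SRF with its coactivators (3) had 0 by edgeR and 0 at an unadjusted p under 0.05. DESeq2 and limma voom also called 0 in each of these 7 groups. The most abundant of each had log2 fold changes of -0.15 for Arpc4, 0.07 for Cyfip1, 0.10 for Lcp1, -0.14 for Evl, 0.10 for Tpm3, 0.11 for Myl6 and 0.17 for Mkl1. Those of Cyfip1 and Tpm3 were negative on the TPM scale (-0.31 and -0.28), where the median of all genes was -0.26. Arpc4, Evl, Cyfip1 and Tpm3 each passed the threshold in 2 of 19 other settings. The log2 fold changes of Arpc4 and Evl reached -0.51 and -0.41 at the lowest.

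**Figure D5:**
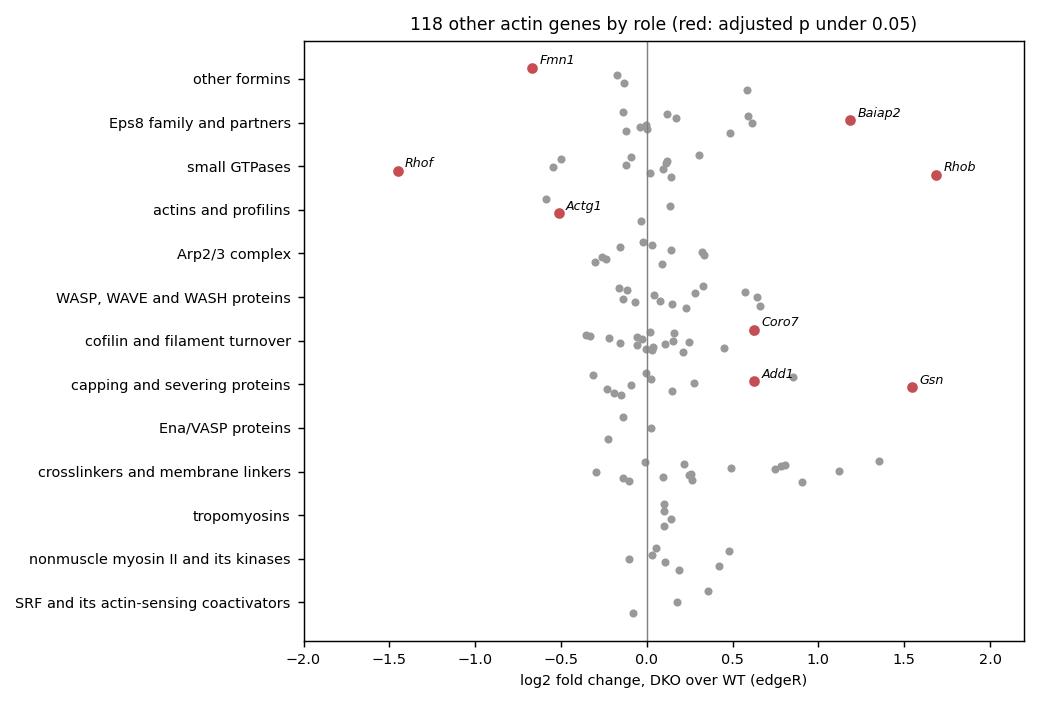
Log2 fold change, DKO over WT (edgeR), of 118 actin genes outside the set, 1 point per gene, grouped by role. Red points with names have an adjusted p under 0.05: Gsn, Rhob, Baiap2, Coro7 and Add1 to the right of 0 and Rhof, Fmn1 and Actg1 to the left.

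Markers of other cells were mostly low or overlapped between the groups. Fibroblast markers summed to 0.920 to 2.18 CPM in DKO and 0.824 to 2.75 CPM in WT, led by Dcn. Astrocyte markers, led by Aldoc, summed to 3.60 to 5.59 CPM in DKO and 2.58 to 5.41 CPM in WT, neuronal markers, led by Camk2a, to 8.49 to 12.7 CPM in DKO and 7.79 to 9.55 CPM in WT, and endothelial markers, led by Kdr, to 5.91 to 13.2 CPM in DKO and 5.51 to 11.7 CPM in WT. Oligodendrocyte markers, led by Cnp, summed to 198 to 213 CPM in DKO and 197 to 230 CPM in WT. Red blood cell markers, led by Hba-a1, ranged over 0.729 to 15.9 CPM in DKO and 0.042 to 12.5 CPM in WT, and neutrophil markers, led by Retnlg, reached 0.171 CPM in DKO and 0.040 CPM in WT, with S100a8 and S100a9 at 0. The 6 monocyte markers, led over all libraries by Ccr2 (5.21 CPM in DKO and 3.69 CPM in WT), summed to 10.8 to 16.2 CPM in DKO and 5.42 to 10.5 CPM in WT. Most of that difference was Cd44, which rose (7.02 CPM in DKO and 1.28 CPM in WT, log2 fold change 2.45, SE 0.38, edgeR adjusted p = 0.00314). Vim (1.25 CPM in DKO and 2.01 CPM in WT) and Plac8 (0.228 CPM in DKO and 0.812 CPM in WT) did not share its direction, and Chil3 was at 0. The 6 T and NK cell markers summed to 9.94 to 18.4 CPM in DKO and 24.9 to 47.9 CPM in WT, nearly all of it Il7r, which fell (12.6 CPM in DKO and 34.1 CPM in WT, log2 fold change -1.44, SE 0.23, adjusted p = 0.00369). The T cell receptor chains Cd3d (1.33 CPM in DKO and 0.996 CPM in WT) and Cd3e (0.069 CPM in DKO and 0.016 CPM in WT) did not share its direction, and Trac and Nkg7 were at 0. Among border-associated macrophage markers, led by Mrc1, which summed to 6.14 to 26.7 CPM in DKO and 4.66 to 15.8 CPM in WT, Pf4 rose (4.67, SE 0.55, adjusted p = 0.000518) and Lyve1 and Cd163 were at 0. Mrc1 had 3.78 to 5.44 CPM in DKO 1 to DKO 3, against 21.7 and 19.3 CPM in DKO 4 and DKO 5. It had 3.95 to 5.51 CPM in WT 1 to WT 3, against 15.3 and 11.02 CPM in WT 4 and WT 5. Its level thus differed between libraries numbered 1 to 3 and 4 to 5 in both genotypes, and why was not tested. B cell markers, led by Ighm, summed to 526 to 886 CPM in DKO and 418 to 677 CPM in WT. Their part in the levels of Eps8, Tagln2, Cnn2 and Diaph2 was not tested.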

How the data were processed

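RNA from sorted microglia of 5 DKO and 5 WT libraries was prepared with the TruSeq RNA kit v2 and sequenced as paired reads. Per the labels and methods, reads were checked with FastQC 0.11.8, trimmed with cutadapt 2.6 and aligned to mm10 with STAR 2.5.3a. No source used here names the tool or annotation behind the gene values. The authors deposited estimated counts per gene, TPM per gene, and a transcript length and an effective length in bases. Groups came from the genotype labels.

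Estimated counts were rounded, filtered with filterByExpr (minimum count 10, leaving 13916 genes), normalised by TMM and compared in edgeR 4.0.16 (quasi-likelihood test, Benjamini-Hochberg over all genes tested, R 4.3.3). SE is the fold change over the square root of F. Alternatives used DESeq2 1.42.0 and limma 3.58.1, with TPM tested as log2(TPM + 1) or log2(TPM + 0.1). Scripts were tested on simulated data. Coordinates are GENCODE's, on GRCm38. Genes that overlap a member each averaged under 0.5 CPM.

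The members, gene lists and tests were chosen with earlier results of these data known. The named genes were all members, the deleted genes, the 2 nearest tested genes on each side of Eps8, up to 3 changed genes by p of each actin list or its most abundant gene, the 3 genes most like Eps8, Diaph2 and Cnn2, and the most abundant gene of each marker list. Marker genes that passed the test, Vim, Plac8, Cd3d, Cd3e, Mgst1, Bcat1, Hebp1, Strap's and Mrc1's values by library, markers at 0, and Cx3cr1 and Tmem119 were named after their values were seen. Values of some marker genes are not reported here. Libraries are labelled as biological replicates, but whether each is a separate mouse is unstated. The p-values cover the variation seen among these libraries, part of which may be technical.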

Additional observations from a re-analysis of the deposited data

Results flagged for a closer look

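Fmnl2 in WT 4 was 3.82 CPM, far from the other 4 WT libraries (2.37 to 2.67 CPM) by Dixon's criterion. Chance sets apart about 1 in 20 groups in this way.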

How the results depend on the processing

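Eps8 and Tagln2 stayed higher and Cnn2 and Diaph2 lower in DKO under every alternative run. Of the 10 genes, 4 passed the fit. With libraries 1 to 3 alone 2 of 8 tested passed, against 298 of 14165 over all genes. With 4 and 5 alone 1 of 9 passed, against 57 of 14133. With single libraries left out 3 to 4 of 9 passed. The set was chosen on this contrast, so nothing is read from these counts. The gene lost without DKO 2 or DKO 5 was Diaph2, and 3 passed under limma voom, on the TPM scales and with the length offset. The 8 calls among other actin genes became 37 on log2(TPM + 1), 36 on log2(TPM + 0.1), 1 with libraries 1 to 3, 0 with libraries 4 and 5, 4 without WT 1 and WT 5, and 2 to 11 with single libraries left out. Over all genes, 862 calls became 1629 with DESeq2 and 4815 and 4820 on the 2 TPM scales. With replicates 1 to 3 and 4 to 5 as a covariate 1431 passed, and within those sets 298 and 57. Without WT 1 and WT 5 449 passed. With single libraries left out 402 to 1618 passed, the most without WT 3. Of all calls 70.1% were higher in DKO, against 54.6% under upper-quartile scaling, 53.7% when scaled by library total and 59.8% with the set covariate. The share was 13.04% and 13.2% on the TPM scales and 54.9% on log2(TPM + 1) without Gm23935. This noncoding RNA had 23.2% to 26.6% of TPM in DKO, 20.3% in WT 3 and 2.85% to 6.60% in the other WT libraries. Cyfip1 and Tpm3 turned to -0.31 and -0.28 on both TPM scales. The Bhlhe40 difference of -0.42 CPM ranged over -0.54 to -0.31 with single libraries left out, and its exact permutation p was not under 0.05 without any single DKO library, WT 4 or WT 5. The causes were not tested.

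No pairing by equal replicate numbers was seen in expression. Deviations of same-numbered DKO and WT libraries correlated at -0.21, 0.13, -0.36, 0.27 and 0.18 over 8869 genes, and 0 of 5 matched best with its own number. Such correlations cannot show whether same-numbered libraries shared a preparation. With the replicate block as a fixed term, 547 genes, 3 of the 10 and 4 other actin genes passed. With it as a random effect, 1305 genes passed. Counts were lowest for Diaph3, Cnn3 and Bhlhe40.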
